A study of Mus musculus with 5 samples.

Results

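Myc and 9 genes that govern entry into the cell cycle were examined in chromatin immunoprecipitation data (ChIP-seq) from mouse thymocytes. Of these, 7 members, here called the activators, drive cells through the G1 phase: Myc, the D-type cyclins Ccnd2 and Ccnd3, the E-type cyclin Ccne1, the cyclin-dependent kinases Cdk4 and Cdk6, and the transcription factor E2f1. The other 3, Cdkn1a, Cdkn1b and Rb1, restrain that passage and are called the inhibitors. These 10 of 22372 protein-coding genes were chosen by name, and for each one the enriched windows were taken within 1 kb of every annotated transcription start site (TSS), here called the promoter, and in the gene body plus 10 kb upstream.

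The study profiled Cxxc1 and trimethylated lysine 4 of histone H3 (H3K4me3) in CD4+CD8+ double-positive (DP) thymocytes, with 5 libraries and 1 library per group. WT animals carried the floxed Cxxc1 allele on both copies without Cre. Cxxc1-deficient animals carried Cxxc1 fl/fl together with hCD2-Cre, a transgene whose human CD2 regulatory elements switch Cre on in early thymocytes and keep it on in later T cells. Mice were 3 to 4 weeks old and backcrossed to C57BL/6, per the study's methods. Titles of the Cxxc1-deficient samples say KO whereas their genotype label is Cxxc1+/-, and the titles were followed. Whether Cxxc1 itself was lost could not be checked from these lists, since H3K4me3 does not measure the protein or its transcript. By other assays, the study reports Cxxc1 mRNA nearly absent from Cxxc1-deficient DP cells and loss of the protein by western blot. There were 3 lists of enriched windows, 1 for Cxxc1, which was assigned to WT from the study's methods, and 1 for H3K4me3 in each genotype. Neither the input library nor the Cxxc1 ChIP made from Cxxc1-deficient cells is analysed here.

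Myc is a transcription factor that raises growth and the output of many cell cycle genes. D-type cyclins bind Cdk4 or Cdk6 and phosphorylate the retinoblastoma protein Rb1, which frees E2F factors such as E2f1 to switch on S phase genes, among them the E-type cyclins that act with Cdk2. The kinase inhibitors p21 (Cdkn1a) and p27 (Cdkn1b) bind cyclin and kinase complexes, and in the thymus DP cells are mostly small resting cells that have left the burst of division following beta-selection. H3K4me3 marks promoters, and Cxxc1 is the CpG-binding subunit of the Setd1 complexes that place it.

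Each window spans 200 bp and carries a value in RPM, the tags in it per M mapped tags of the library. The Cxxc1, WT H3K4me3 and Cxxc1-deficient H3K4me3 lists held 20038, 99316 and 18403 windows, which were joined into 4352, 14237 and 2979 peaks. The step between values placed the depth at 9.092 to 9.142 M tags for Cxxc1 and at 9.413 to 9.473 M tags for each H3K4me3 library, so the lists differ in length far more than in depth. The weakest peak was 1.1 RPM in each list, and a place with no listed window is below the calling threshold with an unknown value. All intervals are 95% and cover counting error only, and with 1 library per group there is no replicate check and no test between genotypes. Of 11 DP thymocyte markers, 6 had a WT H3K4me3 promoter window (Cd8a, Cd8b1, Cd3e, Lck, Bcl11b and Tcf7), whereas Cd4, Rag1, Rag2, Cd3d and Themis had none. Of 19 markers of B, myeloid, thymic epithelial, erythroid and NK cells, 2 had one, Cd79b at 0.4 RPM and Klf1 at 0.9 RPM.

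Promoter H3K4me3 was listed at 7 of 10 members in WT cells and at 3 of 10 in Cxxc1-deficient cells. The WT list held Myc, Ccnd3, Cdk4 and E2f1 among the 7 activators and all 3 inhibitors, against 31.1% of all protein-coding genes. The Cxxc1-deficient list held Ccnd2, Cdk4 and E2f1 and 0 of 3 inhibitors, against 5.86% of all genes. Cdk4 and E2f1 were thus 2 of the 7 WT-listed promoters that were also listed in Cxxc1-deficient cells, where 12.8% of all WT-listed promoters were. Ccnd2 was 1 of 3 members without a WT promoter window that had one in Cxxc1-deficient cells, against 2.72% of all such genes. Cxxc1 was listed at 2 promoters, Myc and Cdk4, against 1.96% of all genes. Cdk4 was the 1 member with promoter windows in all 3 lists, which 0.134% of all genes had. In the stronger 50% of peaks, and at a common minimum of 2.3 RPM, E2f1 was the 1 member left in the Cxxc1-deficient list, where 3.59% and 2.29% of all genes were left. With the most upstream TSS alone Cdk4 was the 1 member left in the Cxxc1 list, against 1.57% of all genes.

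Widening the region to the gene body plus 10 kb upstream added Cdk6 in both genotypes and Ccnd3 in the Cxxc1 list. WT H3K4me3 was then listed at 8 of 10 members, Cxxc1-deficient H3K4me3 at 4 and Cxxc1 at 3. The shares over all genes were 41.5%, 11.0% and 11.1%. Within 10 kb upstream and the gene body, Ccne1 had no window in any list, and of the inhibitors none had a Cxxc1 or Cxxc1-deficient H3K4me3 window. With 50 kb upstream, Ccnd2 and E2f1 joined the Cxxc1 count, which became 5 where 18.4% of all genes had a window, and the inhibitor Cdkn1a joined the Cxxc1-deficient count, which became 5 where 17.8% had one.

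**Figure D1:**
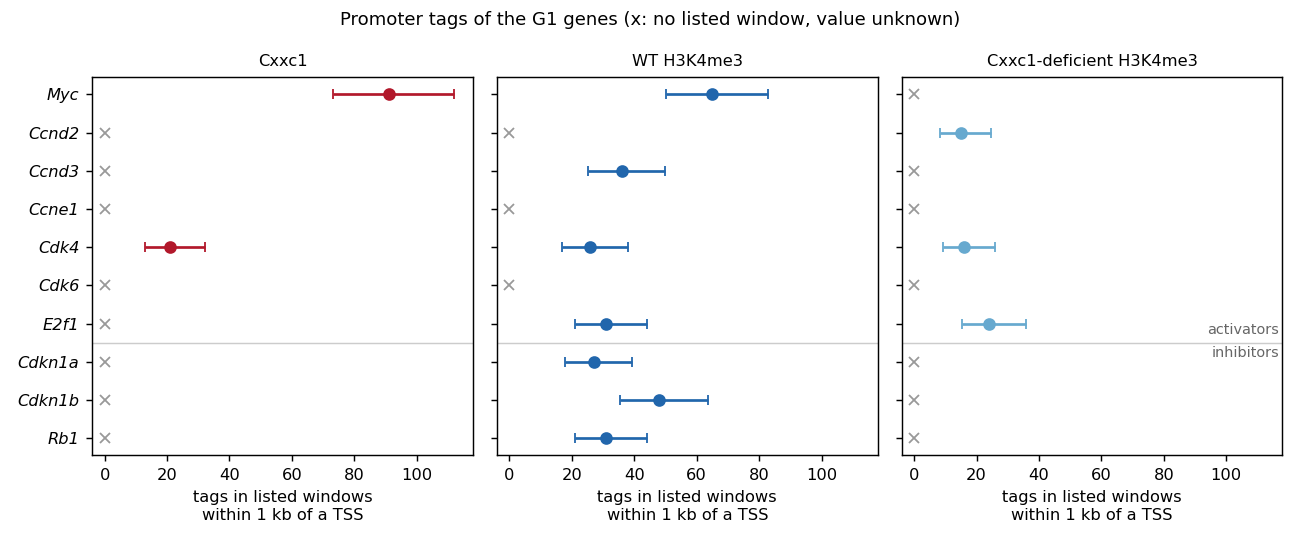
Tags in listed windows within 1 kb of a TSS (x axis) for each member (y axis), with exact 95% Poisson intervals, in the Cxxc1, WT H3K4me3 and Cxxc1-deficient H3K4me3 lists. Crosses mark members with no listed window, whose value is unknown. Myc, at 91 tags, stands apart in the Cxxc1 panel, and the 3 inhibitors, like the activator Ccnd3, carry tags in the WT panel alone.

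Myc (ENSMUSG00000022346.8, chr15:61816946-61821929, plus strand, mm9) had 9.9 RPM of Cxxc1 at its promoters, which was 91 tags (73.3 to 112). WT H3K4me3 there was 6.5 RPM, or 65 tags (50.2 to 82.8), and no Cxxc1-deficient H3K4me3 window was listed. No other gene had a Cxxc1 promoter sum as high. The WT H3K4me3 peak was 4200 bp wide, ranked 198 of 14237 by RPM and was wider than 98.4% of WT peaks. It ran from upstream of the first TSS to just past the first large coding exon, with between 0.2 and 0.7 RPM in each of its 19 windows.

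Cxxc1 overlapped this peak at its downstream end. Its windows formed 2 peaks, centred 2.45 and 4.25 kb downstream of the first TSS. These were chr15:61818801-61820000 with 9.9 RPM and chr15:61820801-61821600 with 5.0 RPM (46 tags, 33.7 to 61.4), ranked 7 and 11 of 4352. The first lay wholly inside the WT H3K4me3 peak, with 4 windows listed in both, and the second lay outside it. Along the first peak the windows read 0.5, 1.2, 1.6, 2.0, 2.6 and 2.0 RPM, and along the second 1.1, 1.9, 1.6 and 0.4 RPM. The 2 peaks covered the 2 large coding exons of Myc, whose coding parts are 772 and 560 bp long, and no window lay wholly in the 1067-bp intron between them. After the last coding base the windows went on for 140 bp and left 329 bp of the 3′ untranslated region unlisted. The first peak counts as promoter since 2 of the 5 annotated Myc start sites lie shortly before the first large coding exon. Counted from the most upstream TSS alone, Myc had no Cxxc1 promoter window and 3.7 RPM of WT H3K4me3.

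**Figure D2:**
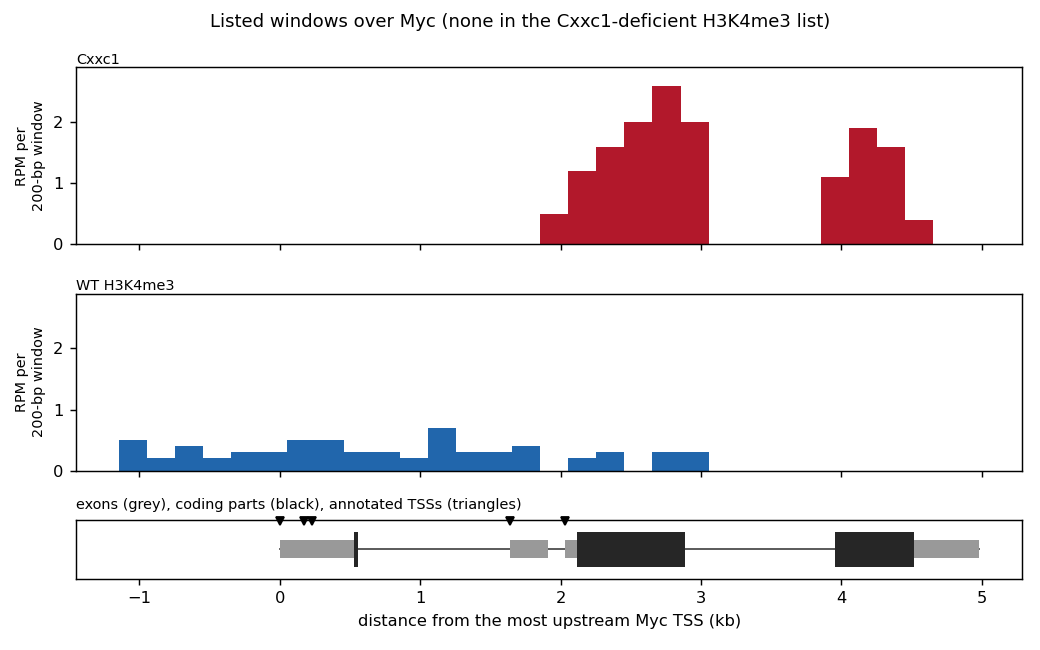
RPM of each listed 200-bp window over Myc for Cxxc1 (top) and WT H3K4me3 (middle) against distance from the most upstream TSS in kb, with exons in grey, their coding parts in black and start sites as triangles (bottom). Cxxc1 windows reach 2.6 RPM and stand over the 2 large coding exons, whereas WT H3K4me3 windows stay at or below 0.7 RPM and begin upstream of the gene.

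Of the 137 Cxxc1 tags in Myc, 132 (96.4%) were in windows touching a coding exon, in 9 of 10 windows. For WT H3K4me3 at Myc it was 14 of 65 tags (21.5%), in 5 of 19 windows. Coding sequence makes up 27.3% of the bases of the gene. That is not a like measure, since all tags of a window count if it touches a coding exon. For example, the Cxxc1 window with 18 tags at the end of the first peak has 33 coding bp. Among the 2064 genes with a Cxxc1 window in the body, 1345 had no tag on a coding exon and the median share was 0%. In 25 genes at least 90% of the tags touched coding exons over at least 2 of them, and there Myc led with 14.4 RPM on coding exons, the next being Phf12 and Skor1 with 2.1 RPM each. The gene closest to Myc in this respect among the 94 with at least 5 RPM in the body was Cxxc1 itself, with 516 of 592 tags (87.2%) on coding exons and windows on 15 of 15 of them. This description of coding exons was chosen after the values were seen. What gives Cxxc1 tags at Myc and at Cxxc1 this arrangement was not tested, and the Cxxc1 values of Myc are given with that limit.

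The Cxxc1 window with the most tags in Myc is printed here because all of its 200 bases are coding, and the bases before the first TSS are printed because no Cxxc1 window was listed there. Capitals mark CpG dinucleotides in every sequence, all are from the NCBIM37 assembly (mm9), and each reads 5′ to 3′ along the strand of the gene.
Myc window, chr15:61819601-61819800, plus strand: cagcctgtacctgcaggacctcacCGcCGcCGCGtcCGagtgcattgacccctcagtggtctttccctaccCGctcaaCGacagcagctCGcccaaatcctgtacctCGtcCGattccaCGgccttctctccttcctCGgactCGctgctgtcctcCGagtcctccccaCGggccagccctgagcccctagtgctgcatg
Myc promoter, chr15:61816796-61816945, plus strand: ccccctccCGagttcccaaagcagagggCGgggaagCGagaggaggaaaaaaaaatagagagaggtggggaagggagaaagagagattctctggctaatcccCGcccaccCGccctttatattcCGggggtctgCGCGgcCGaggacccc
The window holds 15 CpG in 200 bases (2.6 RPM), whereas the 150 bases before the first TSS hold 9.

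Among the 3 genes whose promoter RPM over the 3 lists came closest to Myc were Tcf7 (2.0 Cxxc1, 5.5 WT H3K4me3) and Socs2 (2.1 and 5.3), neither of which had a Cxxc1-deficient H3K4me3 promoter window. Their summed absolute differences from Myc were 8.9 and 9.0 RPM. These differences are larger than the whole WT value of Myc, and the promoter regions differ in length, with 4032 bp for Myc, 2936 bp for Tcf7 and 5899 bp for Socs2, so neither is a close match.

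Cdk4, the kinase partner of D-type cyclins (ENSMUSG00000006728.6, chr10:126500590-126504976, plus strand), carried 2.3 RPM of Cxxc1 (21 tags, 13.0 to 32.1), 2.6 RPM of WT H3K4me3 (26 tags, 17.0 to 38.1) and 1.6 RPM of Cxxc1-deficient H3K4me3 (16 tags, 9.15 to 26.0) at its promoters. The H3K4me3 intervals of WT and Cxxc1-deficient cells overlap. Cxxc1 tags come from another antibody, so their count is not comparable with these. Cxxc1 windows fell on either side of the first TSS, at 0.7, 0.2 and 0.3 RPM upstream and 0.7 and 0.4 RPM downstream. In the 3 windows listed in both genotypes there were 11 WT and 13 Cxxc1-deficient tags, a ratio of 1.18 (0.489 to 2.91). The interval lies on both sides of 1, so a difference in these windows was not detectable at this depth. A further WT peak of 3.0 RPM was centred at -3.29 kb from the Cdk4 TSS, which is 0.06 kb from the TSS of the neighbouring gene March9, and had no Cxxc1-deficient counterpart in the list.

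E2f1, the transcription factor released by Rb1 (ENSMUSG00000027490.10, chr2:154385143-154395628, minus strand), carried 3.2 RPM of WT H3K4me3 (31 tags, 21.1 to 44.0) and 2.4 RPM of Cxxc1-deficient H3K4me3 (24 tags, 15.4 to 35.7), with no Cxxc1 window. The WT peak spanned 1200 bp and its highest window read 1.2 RPM, 0.328 kb downstream of the first TSS. The Cxxc1-deficient peak spanned 2000 bp and its highest window read 0.6 RPM. In the 4 windows listed in both genotypes there were 23 WT and 11 Cxxc1-deficient tags, a ratio of 0.478 (0.21 to 1.02), whose interval includes 1. For Cdk4 and E2f1 together, the 7 shared windows held 34 and 24 tags, a ratio of 0.706 (0.4 to 1.23). The highest WT window of E2f1 alone held 11 WT and 2 Cxxc1-deficient tags. Over the 4663 windows that both lists share, the median of the ratios taken window by window was 1.0. That is a different measure from a ratio of summed tags, so the 2 values are not comparable. Windows listed in both genotypes are a selected set, so these ratios leave out every promoter that dropped below the threshold. Values are relative to library depth, so a change in total H3K4me3 per cell need not show in these ratios. By an antibody assay of extracted histones (ELISA), the study found less total H3K4me3 in Cxxc1-deficient than in WT DP cells.

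**Figure D3:**
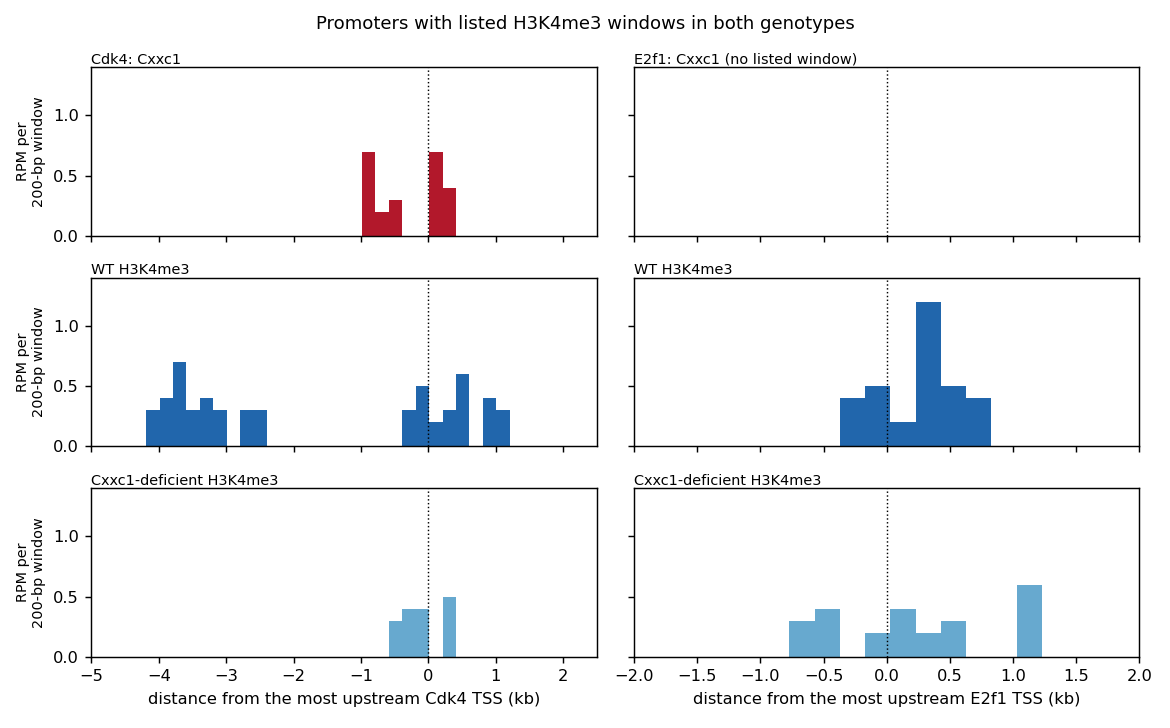
RPM of each listed 200-bp window at Cdk4 (left) and E2f1 (right) in the 3 lists against distance from the most upstream TSS in kb (dotted line). At Cdk4 all 3 lists have windows around the TSS and the WT panel alone has the group near March9, and at E2f1 the highest WT window (1.2 RPM) is above every Cxxc1-deficient window.

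The promoter of Cdk4 is printed because it is near windows of all 3 lists, and those of E2f1 and Ccnd2 because they are the other promoters listed in Cxxc1-deficient cells. The Cxxc1 window shown for Cdk4 lies upstream of the gene and ties, at 0.7 RPM, with 1 just downstream of the TSS.
Cdk4 promoter, chr10:126500440-126500589, plus strand: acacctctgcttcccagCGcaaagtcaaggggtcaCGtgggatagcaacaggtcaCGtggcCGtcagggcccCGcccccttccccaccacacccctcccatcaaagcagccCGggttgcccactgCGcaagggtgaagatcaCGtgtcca
Cdk4 window, chr10:126499601-126499800, plus strand: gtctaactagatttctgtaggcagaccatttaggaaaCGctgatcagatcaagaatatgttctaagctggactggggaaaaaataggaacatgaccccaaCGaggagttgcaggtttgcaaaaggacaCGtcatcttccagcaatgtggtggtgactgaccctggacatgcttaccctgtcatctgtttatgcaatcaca
E2f1 promoter, chr2:154395629-154395778, minus strand: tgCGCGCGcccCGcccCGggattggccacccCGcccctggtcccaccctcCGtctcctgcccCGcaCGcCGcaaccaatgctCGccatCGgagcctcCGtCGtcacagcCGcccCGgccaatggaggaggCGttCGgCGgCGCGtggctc
Ccnd2 promoter, chr6:127101067-127101216, minus strand: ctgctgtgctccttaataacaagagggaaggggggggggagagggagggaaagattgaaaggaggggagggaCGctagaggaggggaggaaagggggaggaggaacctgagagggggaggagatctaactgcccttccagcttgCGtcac
The 150 bases before the first TSS hold 8 CpG in Cdk4, 21 in E2f1 and 2 in Ccnd2. The Ccnd2 stretch lies outside the listed Cxxc1-deficient windows, which are all downstream of the TSS. The E-box CACGTG, the sequence that Myc and its partner Max recognise, occurs 3 times in the Cdk4 stretch and in no other member. Over all 22372 genes, 4.61% hold it at least once in the same 150 bases and 11 genes hold it 3 or more times. The GC box GGGCGG, counted on both strands, occurs in 7 of 10 members and in 35.9% of all genes. The E2F words TTTGGCG and TTTCCCG, counted on both strands, occur in none of the members and in 2.98% of all genes. Overlapping matches were counted, a match is no evidence of binding, and the absence of a word says nothing about the factor.

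The D-type cyclin genes differed from each other. Ccnd3 (ENSMUSG00000034165.8, chr17:47642000-47736632, plus strand) had 3.6 RPM of WT H3K4me3 at its promoters (36 tags, 25.2 to 49.8), of which 1.4 RPM lay at the first TSS. Its gene body and upstream region held 21.2 RPM in 55 windows and 10 peaks (212 tags, 184 to 243), the highest sum among the members. The peaks ranged from 1.4 to 3.2 RPM, 6 of them in introns 6.7 to 38.0 kb from the first TSS and 3 near the second TSS, 88.7 to 93.2 kb along. A single Cxxc1 peak of 1.8 RPM (18 tags, 10.7 to 28.4) was intronic, 27.4 kb from the first TSS, and no Cxxc1-deficient window was listed. Ccnd2 (ENSMUSG00000000184.9, chr6:127075797-127101066, minus strand) showed the opposite listing. It had no WT window, and a Cxxc1-deficient peak of 1.8 RPM (18 tags, 10.7 to 28.4) was centred 0.866 kb downstream of its TSS, with 1.5 RPM of it inside the promoter. That peak was weaker than the median Cxxc1-deficient peak of 2.0 RPM, and the WT value at the same place is unknown.

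Cdk6, the other kinase partner of D-type cyclins (ENSMUSG00000040274.5, chr5:3343893-3523218, plus strand), had no promoter window in any list. An intronic WT peak of 1.6 RPM (16 tags) lay 50.9 kb from the first TSS, and Cxxc1-deficient peaks of 1.9 RPM (19 tags) and 1.7 RPM (17 tags) lay 39.2 and 130 kb along. The WT and Cxxc1-deficient peaks were at different places, so no ratio between them compares the same sequence, and the last of them reached the promoter of Gm17590, inside Cdk6. Ccne1 (ENSMUSG00000002068.10, chr7:38883003-38892553, minus strand), the activator of Cdk2, was unlisted throughout.

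**Figure D4:**
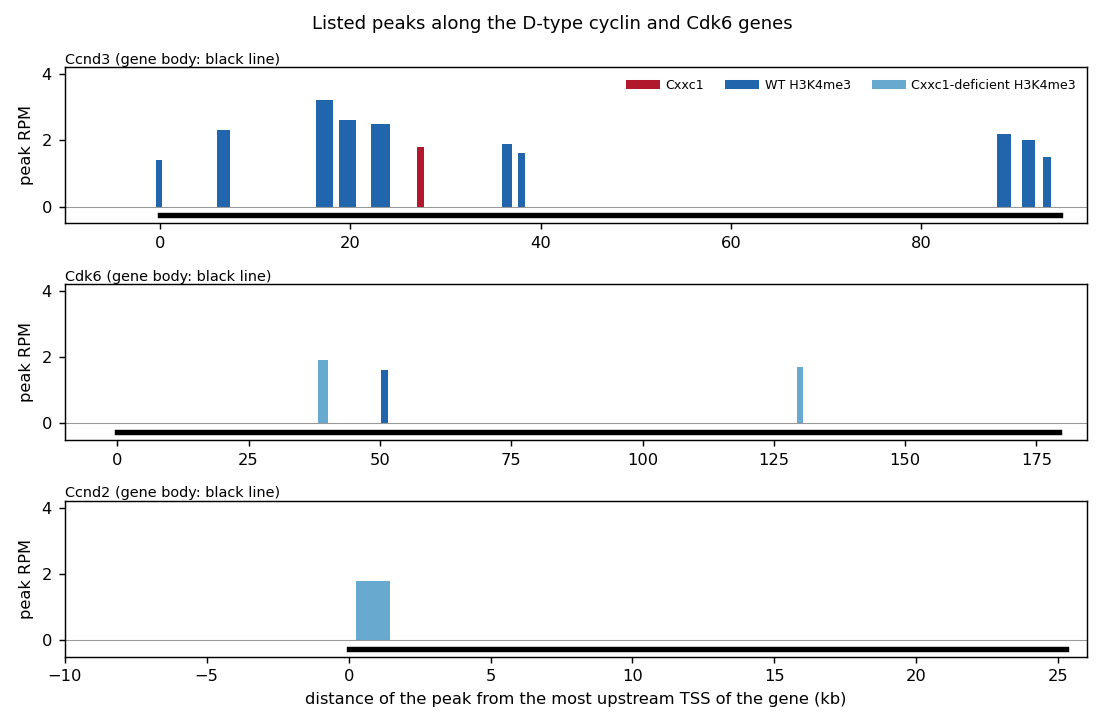
Summed RPM of each listed peak (y axis) against its distance from the most upstream TSS in kb (x axis, different scale in each panel) for Ccnd3, Cdk6 and Ccnd2, with bar width equal to peak width and the gene body as a black line. Ccnd3 has 10 WT peaks and 1 Cxxc1 peak, Cdk6 has intronic peaks alone, and Ccnd2 has 1 Cxxc1-deficient peak.

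The first of the Ccnd3 Cxxc1 windows tied at 0.5 RPM is shown as the intronic counterpart of the coding windows of Myc.
Ccnd3 window, chr17:47669001-47669200, plus strand: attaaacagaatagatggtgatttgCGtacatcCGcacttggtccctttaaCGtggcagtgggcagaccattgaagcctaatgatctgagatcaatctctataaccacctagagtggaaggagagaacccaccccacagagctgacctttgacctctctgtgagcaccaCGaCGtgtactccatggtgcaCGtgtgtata
It holds 6 CpG in 200 bases.

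All 3 inhibitors had WT promoter H3K4me3, against 31.1% of all genes. None was listed in Cxxc1-deficient cells, where 12.8% of all WT-listed promoters were, so 0 of 3 is near that share. Among the other inhibitors counted below, 13 had a WT promoter window, and 3 of these were listed in Cxxc1-deficient cells too. Cdkn1b, which encodes p27 (ENSMUSG00000003031.8, chr6:134870419-134875531, plus strand), had 4.8 RPM (48 tags, 35.4 to 63.6), and its peak of 5.9 RPM (59 tags, 44.9 to 76.1) ranked 287 of 14237. Its highest windows, at 0.8 RPM, lay just downstream of the TSS. Rb1 (ENSMUSG00000022105.6, chr14:73583480-73725629, minus strand) had 3.1 RPM (31 tags, 21.1 to 44.0), and a further WT peak of 1.4 RPM inside the gene was centred 0.202 kb from the TSS of Lpar6, which is nested in Rb1. Cdkn1a, which encodes p21 (ENSMUSG00000023067.7, chr17:29227924-29237667, plus strand), had 2.7 RPM (27 tags, 17.8 to 39.3). That peak, of 3.9 RPM in all, lay 3.48 kb from the first TSS and 0.683 kb from the second, so with the most upstream TSS alone Cdkn1a had no promoter window and the WT count was 6 of 10.

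The inhibitors were set against the activators by level per kb of promoter region, since the regions differ in length. On WT H3K4me3 tags per kb the order was Cdkn1b 24.0 (17.7 to 31.8), Myc 16.1 (12.4 to 20.5), Rb1 15.5 (10.5 to 22.0), E2f1 12.5 (8.51 to 17.8), Cdk4 11.1 (7.27 to 16.3), Ccnd3 9.0 (6.3 to 12.5) and Cdkn1a 4.5 (2.96 to 6.54). Every pair of neighbours in this order had overlapping intervals. Cdkn1b lay above Ccnd3, Cdk4 and Cdkn1a without overlap, and Cdkn1a lay below Myc, Rb1, E2f1, Cdk4 and Cdkn1b without overlap. Inhibitors held both ends of this order of listed members, which depends on the division by length, since the promoter region of Cdkn1a covers 6003 bp. The activators Ccnd2, Ccne1 and Cdk6 had no WT promoter window, so their values are unknown and they have no place in the order. By summed promoter RPM activators held both ends among the listed members, with Myc at 6.5 above Cdkn1b at 4.8. At the lower end Cdk4 at 2.6 and Cdkn1a at 2.7 were nearly equal (26 and 27 tags). In RPM per kb the median of the 6962 WT-listed genes was 0.95, and Cdkn1b at 2.4 stood above 99.8% of them, Myc at 1.61 above 91.8% and Cdkn1a at 0.45 above 14.7%. In Cxxc1-deficient cells E2f1 had 0.969, Ccnd2 0.75 and Cdk4 0.685 RPM per kb, beside a median of 0.7 over 1312 listed genes.

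The inhibitor promoters are shown because they cover the range of CpG content among the members.
Cdkn1b promoter, chr6:134870269-134870418, plus strand: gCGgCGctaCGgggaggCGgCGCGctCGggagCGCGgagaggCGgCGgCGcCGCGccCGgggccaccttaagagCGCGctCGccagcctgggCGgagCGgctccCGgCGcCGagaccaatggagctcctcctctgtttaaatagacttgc
Rb1 promoter, chr14:73725630-73725779, minus strand: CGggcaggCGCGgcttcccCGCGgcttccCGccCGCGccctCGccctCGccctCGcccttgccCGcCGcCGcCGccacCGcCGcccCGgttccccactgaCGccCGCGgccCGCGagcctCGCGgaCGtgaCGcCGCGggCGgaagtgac
Cdkn1a promoter, chr17:29227774-29227923, plus strand: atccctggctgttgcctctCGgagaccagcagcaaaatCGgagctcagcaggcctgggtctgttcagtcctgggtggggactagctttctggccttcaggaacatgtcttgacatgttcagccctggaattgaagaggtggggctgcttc
These 150 bases hold 23 CpG in Cdkn1b, 30 in Rb1 and 2 in Cdkn1a. Within 1 kb of the first TSS the observed to expected CpG ratio was 0.76 for Cdkn1b, 1.0 for Rb1, above 99.7% of all genes, and 0.15 for Cdkn1a, where the median of all genes was 0.469. No window was listed within 1 kb of the first TSS of Cdkn1a.

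Promoters with a ratio of at least 0.6 and at least 50% GC were taken as CpG-rich. By this rule 6 of 10 members qualified (Myc, Ccne1, Cdk6, E2f1, Cdkn1b and Rb1), beside 6689 of the 22372 genes. Of these 6 members, 4 had WT promoter H3K4me3, against 57.6% of all CpG-rich promoters. Ccne1 (0.747) and Cdk6 (0.78) were CpG-rich without a window, and Ccnd3 (0.328) had a window without being CpG-rich. The ratio covers the first TSS alone, where 1.4 of the 3.6 RPM of Ccnd3 lay. All listed promoter windows of Cdkn1a (0.15) lay near its second TSS, whose CpG content was not measured. Of the 3 promoters listed in Cxxc1-deficient cells E2f1 had a ratio of 0.747, Cdk4 0.559 and Ccnd2 0.544. The 7 listed members are described here one by one, with no relation fitted.

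**Figure D5:**
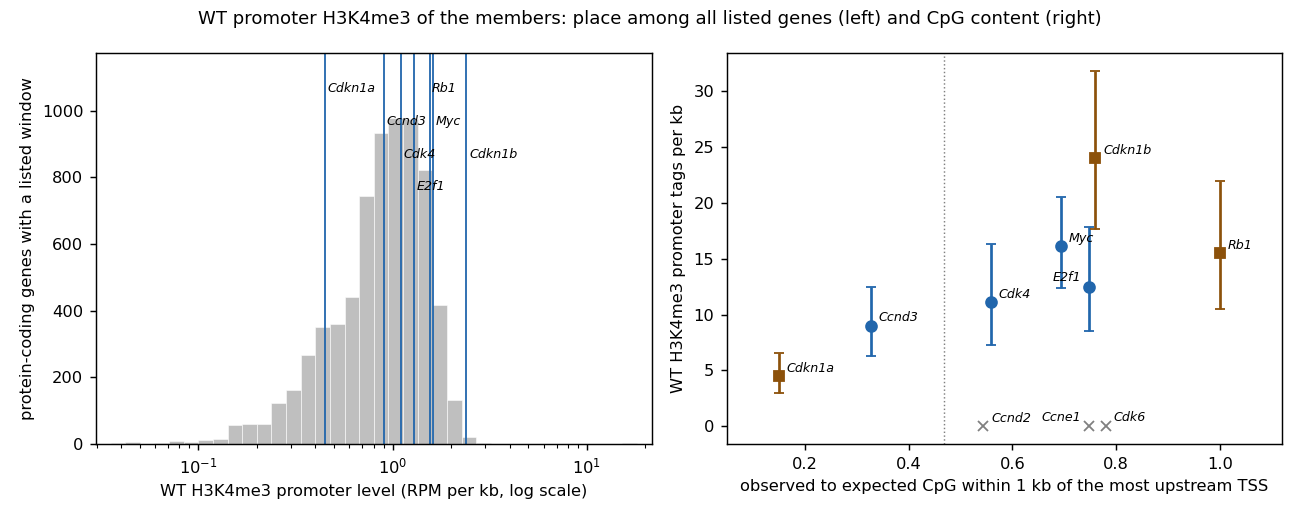
Left, histogram of WT H3K4me3 promoter level in RPM per kb (log x axis) over the 6962 genes with a listed window, with lines at the 7 listed members. Right, WT promoter tags per kb with exact 95% Poisson intervals against the observed to expected CpG ratio, activators as blue circles, inhibitors as brown squares, unlisted members as crosses at 0 and the median ratio of all genes as a dotted line. Cdkn1b, at 2.4 RPM per kb, lies in the upper tail of the histogram, and Cdkn1a is the lowest of the 7 lines at 0.45. Ratios are those around the most upstream TSS, whereas the tags cover every TSS. For Cdkn1a all tags lie near its second TSS, so its tags and its ratio describe different places.

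Other genes of the pathway were counted from lists of 17 activators, 16 inhibitors and 14 S phase genes. None of these 47 had a Cxxc1 promoter window, 30 had a WT H3K4me3 promoter window, 7 a Cxxc1-deficient one and 5 had both. The shares over all genes were 1.96%, 31.1% and 5.86%, so 0 of 47 is near what the Cxxc1 list gives for genes at large. The 5 with both are 5 of the 30 WT-listed genes, where 12.8% of all WT-listed promoters were also listed in Cxxc1-deficient cells. WT windows were listed at 13 of 17 activators and 13 of 16 inhibitors, and at 4 of 14 S phase genes. The activators listed in Cxxc1-deficient cells were E2f3, an E2F activator, with 1.7 RPM (WT 6.1), and Mycn, a relative of Myc, with 1.9 RPM (WT 3.2). The inhibitors were Cdkn2c, which inhibits Cdk4 and Cdk6, with 2.0 RPM (WT 2.2), Rbl1, a relative of Rb1, with 1.9 RPM (WT 1.9), and Trp53, the regulator of Cdkn1a, with 2.3 RPM (WT 2.0). Mcm5, a subunit of the replicative helicase, with 2.2 RPM and Pcna, the sliding clamp, with 1.6 RPM were listed in Cxxc1-deficient cells without a WT promoter window, as Ccnd2 was.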

How the data were processed

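ChIP DNA from DP thymocytes (formaldehyde, sonication) was sequenced as 50-bp reads, and the authors mapped unique reads to mm9 (CASAVA 1.8.2 is named in the submitters' processing notes) and called regions with SICER 1.1, with input and Cxxc1-deficient ChIP as controls. The aligner and the treatment of duplicates are not given in the sources used here, and each can change what is listed. The deposited values are RPM, at 1 decimal, per 200-bp window inside called regions. The Cxxc1 file carries no genotype. Groups came from the sample titles.

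Windows with at most 2 missing windows between them were joined into peaks, whose strength is their summed RPM, and tags are window RPM divided by the inferred value of 1 tag, rounded. Rounding to 1 decimal makes summed RPM slightly lower than the tags imply. Genes were the protein-coding genes of GENCODE vM1 on NCBIM37, the assembly of mm9, and every window fell inside its chromosomes. Intervals were exact Poisson for tags and exact for ratios (Python 3.11.15, numpy 2.4.6, scipy 1.17.1). In simulated data, windows planted at the first TSS of 200 genes, of 21410 searched, were all found. This checks the overlap search alone and does not measure how well weak enrichment is detected. The 10 members are all named, and other pathway genes are named if they have a Cxxc1 window or a Cxxc1-deficient promoter window. Some items that these rules name are not reported here. The members and lists were chosen with earlier results of these data known. Alternatives were the promoter width, the most upstream TSS alone, the upstream distance, window and peak minimums, and, chosen after seeing the data, leaving out coding exon windows.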

Additional observations from a re-analysis of the deposited data

How the results depend on the processing

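Each group had 1 library, so the differences between genotypes have no replicate check, and a promoter without a listed window has an unknown value below the threshold. No paired analysis was possible because there was a single library for each genotype and antibody. Of 43 alternative values for the main counts and the ratio, 37 stayed within their limits and 6 moved. Cxxc1-deficient promoters and the Cxxc1-deficient gene body plus 10 kb upstream each fell to 1 member, E2f1, both in the stronger 50% of peaks and at a common minimum of 2.3 RPM. For the gene body plus 10 kb upstream, 6.49% and 4.15% of all genes were left at these settings. The Cxxc1 promoter count became 1 with the most upstream TSS alone, and the Cxxc1 count over gene bodies became 5 with 50 kb upstream. Some of the 37 that stayed also changed. In the stronger 50% of peaks and at the common minimum, WT promoters lost Ccnd3 and became 6, against 20.1% of all genes. At both settings the WT count over gene bodies lost Cdk6 and became 7, against 27.2%. At the common minimum the Cxxc1 count over gene bodies lost Ccnd3 and became 2, against 2.56%. Of 36 alternative values for single members, 10 moved, among them Myc Cxxc1 promoter RPM, which was 5.3 within 500 bp of a TSS. With coding exon windows left out, an alternative chosen after seeing the data, Myc kept 1 Cxxc1 window of 0.5 RPM (5 tags). That window alone kept Myc in the Cxxc1 promoter and gene body counts, which are among those that stayed. It is weaker than the weakest Cxxc1 peak of 1.1 RPM. The ratio over the members together was 0.706 in shared windows. Limiting these to 1 kb of a TSS left the same 7 windows, so that alternative could not differ. Over promoter sums the ratio was 0.702. Over all listed windows it was 0.738, a set that also holds the March9 peak and the Cdk6 peaks, which lie at different places in the 2 genotypes. For Cdk4 alone the direction depended on the windows taken, with 1.18 in shared windows, 0.615 over promoter sums and 0.286 over all listed windows, the last set holding 15 WT windows, with the March9 peak, and 4 Cxxc1-deficient ones.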
